A study of Homo sapiens with 6 samples.

Results

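GATA2, GATA3, GATA4, GATA5 and GATA6 are the 5 genes for GATA transcription factors on human autosomes. The rule for their choice is family membership, although they were taken up with earlier results of these data known, and they are 5 of the 56638 genes in the table of ChIP-seq read counts. The study lists GATA3 and GATA4 among genes with raised mRNA under MAK683 in G401 cells, in a group with high H3K27me3 before treatment. Counts below that include GATA3 or GATA4 are therefore description and not fresh support for that result. G401 cells, an established line from a rhabdoid tumor of the kidney that has lost the chromatin remodeling subunit SMARCB1, were given DMSO, the solvent control, or 3 µM MAK683 for 3 days. MAK683 binds EED, a core subunit of Polycomb repressive complex 2 (PRC2), and thereby inhibits the enzyme complex that writes H3K27me3. Each treatment had 1 library of H3K27me3, 1 of H3K4me3 and 1 of input chromatin. There was no replicate, no p-value can be given, and every interval below covers counting error in these libraries only. ChIP reads carry no molecular identifiers and are not independent molecules. Even counts were 1.05 to 1.28 times as common as the odd counts beside them in the 6 libraries, as where both mates of a read pair are counted, so each interval takes 2 counts as 1 fragment, the wider choice.

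The GATA proteins bind DNA through zinc fingers that recognize the core letters GATA. GATA2 and GATA3 are known for their work in blood, T cells, nephric duct and other epithelia, while GATA4, GATA5 and GATA6 are known for heart and endoderm. Genes for such lineage factors are classical PRC2 targets: in cells of another lineage their promoters lie in CpG-rich DNA within broad domains of H3K27me3, and active promoters instead carry H3K4me3 around the start site.

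RefSeq (GRCh38.p14) promoter windows were at hand for 3 of the 5 genes, GATA2, GATA3 and GATA6, with 2, 6 and 1 start sites. The 250 bases before a start are shown for the start of each gene with most CpG dinucleotides, because CpG density is a feature shared by PRC2 target promoters and H3K4me3 promoters. They are written 5′ to 3′ on the strand of the gene, with every CG in capitals.
GATA2, chr3:128493202-128493451, minus strand: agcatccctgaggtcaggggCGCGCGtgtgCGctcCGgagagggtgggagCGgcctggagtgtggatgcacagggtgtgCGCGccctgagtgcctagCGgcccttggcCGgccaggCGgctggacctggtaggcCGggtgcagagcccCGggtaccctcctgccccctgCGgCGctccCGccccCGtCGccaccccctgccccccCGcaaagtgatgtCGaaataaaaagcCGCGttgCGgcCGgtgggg
GATA3, chr10:8053391-8053640, plus strand: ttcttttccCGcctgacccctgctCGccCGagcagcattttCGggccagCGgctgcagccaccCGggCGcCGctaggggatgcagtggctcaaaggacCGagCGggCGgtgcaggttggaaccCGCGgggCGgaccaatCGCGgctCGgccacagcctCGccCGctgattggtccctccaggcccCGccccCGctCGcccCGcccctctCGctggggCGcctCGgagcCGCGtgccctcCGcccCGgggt
GATA6, chr18:22169339-22169588, plus strand: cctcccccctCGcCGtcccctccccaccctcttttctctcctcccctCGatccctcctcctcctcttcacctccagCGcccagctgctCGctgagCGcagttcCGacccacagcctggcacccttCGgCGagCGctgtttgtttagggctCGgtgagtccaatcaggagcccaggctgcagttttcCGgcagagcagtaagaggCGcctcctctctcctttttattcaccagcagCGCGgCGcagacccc
These windows held 24 CpGs for GATA2, 30 for GATA3 and 16 for GATA6, against a median of 11 over 35116 promoter windows of the same length. They were picked for their CpGs and the other windows were not, so this comparison favors them. The other GATA2 window held 18, and the other GATA3 windows held from 4 to 26. The 1 window of GATA6 held more CpGs than 59.0% of all windows. The GATA3 window is shared: the 3 starts of the antisense gene GATA3-AS1 lie between 157 and 219 bases before the GATA3 start on the other strand, so most of these letters are upstream of both genes. The GATA binding letters AGATAA (or AGATAG) and TGATAA (or TGATAG) were searched on both strands, and 0 of the 9 windows of the 3 genes held one, compared with 22.3% of all windows. A missing match says only that these letters are not in these windows.

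Depth differed between the libraries, from 13308099 counts for MAK683 H3K27me3 to 21281877 for DMSO H3K4me3, and values are therefore given as counts and as CPM, counts scaled by the library total. The H3K27me3 library totals put 41.0% of the pair in MAK683, so a gene whose share of counts is near that did not move relative to the library. CPM cannot show a loss of H3K27me3 that is common to all genes. The methods of the study place a spike-in normalization of the reads before counting, but its factors are not given and the whole-number counts do not show whether they carry it. If they do, CPM takes that scaling out again, and the H3K27me3 results are therefore also given in the counts as deposited. SMARCB1 was at 0 in both inputs and had at most 4 counts in any library. Levels are compared between genes only as CPM over input CPM, over 17987 genes with at least 200 input counts in the 2 treatments together. Gene length cancels in this ratio for signal spread evenly over a gene. All 5 GATA genes passed this filter and that of 100 counts for each modification. Counts cover a gene as a whole, so a modification at the promoter weighs less in a long gene.

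GATA4 had the highest H3K27me3 of the family. It lies at 11534468 to 11617511 on chromosome 8 (hg19, plus strand), spans 83.0 kb and encodes a regulator of heart and endoderm that is also known as a driver of the inflammatory program of senescent cells. H3K27me3 gave 5242 counts in DMSO and 2915 in MAK683, H3K4me3 gave 1063 and 1757, and input gave 1067 and 1413. In DMSO this was 4.31 times input for H3K27me3 (log2 2.11, 95% interval 1.98 to 2.25) and 0.788 times input for H3K4me3 (log2 -0.34). GATA4 was the one member at 4 times input or more for H3K27me3, a level passed by 0.417% of all genes, and the one member with H3K4me3 below input in DMSO.

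GATA3 and GATA6 carried both modifications in DMSO. GATA3, on chromosome 10 at 8087341 to 8117161 (plus strand), encodes the master regulator of T helper type 2 cells and of luminal breast epithelium. GATA3 H3K27me3 gave 944 counts in DMSO and 509 in MAK683, H3K4me3 gave 586 and 1067, and input gave 270 and 329. GATA6, on chromosome 18 at 19749550 to 19782491 (plus strand), encodes a factor of primitive endoderm, heart and gut. GATA6 H3K27me3 gave 936 counts in DMSO and 525 in MAK683, H3K4me3 gave 794 and 898, and input gave 340 and 379. H3K27me3 in DMSO stood at 3.07 times input for GATA3 and 2.42 times for GATA6, and H3K4me3 at 1.71 and 1.85 times. Both modifications were above input in 2 of the 5 genes, compared with 2.28% of all genes.

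GATA5 and GATA2 did not stand above input for H3K27me3 in CPM over the gene as a whole. For GATA5 this rests on the scaling. The factor of DMSO H3K27me3 to DMSO input was 1.14 by library totals but 0.760 by median-of-ratios. With the latter, GATA5 at 133 and 122 counts would lie above input, and GATA2 at 97 and 147 below. Most genes lay below input in DMSO. The H3K27me3 level over input was higher at GATA5 than in 72.3% of all genes, and at GATA2 than in 49.4%. GATA5, on chromosome 20 at 61038553 to 61051051 (minus strand), encodes a factor of the endocardium and gut. GATA5 H3K27me3 gave 133 counts in DMSO and 78 in MAK683, H3K4me3 gave 212 and 259, and input gave 122 and 196. The H3K27me3 level of GATA5 in DMSO, 0.958 times input, could not be told from input by its counting interval (log2 -0.59 to 0.46). GATA2, on chromosome 3 at 128198270 to 128212044 (minus strand), encodes a factor of blood stem cells and endothelium. GATA2 H3K27me3 gave 97 counts in DMSO and 76 in MAK683, H3K4me3 gave 3176 and 2584, and input gave 147 and 169. Its H3K4me3 was 17.0 times input in DMSO and 15.1 times in MAK683, higher than in 99.9% of all genes in DMSO, while its H3K27me3 was 0.582 times input.

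**Figure D1:**
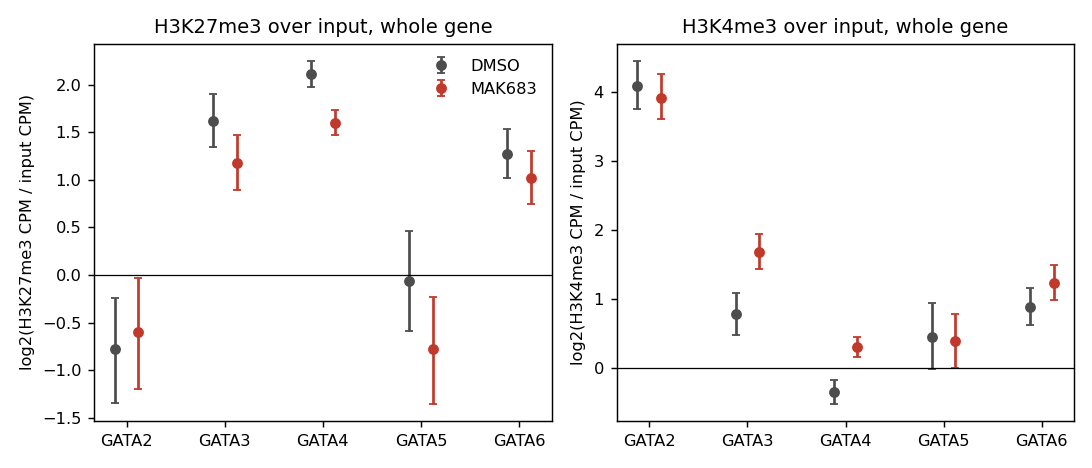
Log2 of H3K27me3 CPM over input CPM (left) and of H3K4me3 CPM over input CPM (right) for the 5 GATA genes in DMSO (grey) and MAK683 (red), 1 library each, with 95% counting intervals as bars. GATA3, GATA4 and GATA6 lie above the input line for H3K27me3 under both treatments, and GATA2 stands apart from the other genes for H3K4me3.

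H3K27me3 over input in DMSO ranked GATA4 first, then GATA3, GATA6, GATA5 and GATA2. GATA4 exceeded GATA3 by 0.49 (interval 0.18 to 0.80) and GATA6 exceeded GATA5 by 1.34 (interval 0.77 to 1.90) on the log2 scale. GATA3 and GATA6 could not be told apart (difference 0.34, interval -0.03 to 0.72), nor could GATA5 and GATA2. The median of the 5 genes was 1.27 on the log2 scale, whereas that of all genes was -0.77. With median-of-ratios factors these medians were 1.85 and -0.19, so the counts above input that follow hold for CPM. H3K27me3 was above input in 3 of the 5 genes and at 2 times input or more in the same 3, GATA3, GATA4 and GATA6, compared with 26.7% and 9.82% of all genes. In MAK683 the H3K27me3 CPM of these 3 genes was 2.26, 3.02 and 2.03 times input CPM, a level of 2 or more that 5.93% of all genes reached. GATA3 and GATA6 differed in MAK683 by 0.16 (interval -0.23 to 0.55). The study reports a massive depletion of H3K27me3 across the genome of G401 cells under MAK683. CPM cannot show such a common loss, so these ratios do not tell how much H3K27me3 was kept.

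H3K4me3 over input in DMSO placed GATA2 first, followed by GATA6, GATA3, GATA5 and GATA4. The genes span from 12.5 kb (GATA5) to 83.0 kb (GATA4), and this order is not corrected for the lower weight of a promoter signal in a long gene. GATA6 and GATA3 differed by less than the counting interval, as did GATA3 and GATA5. H3K4me3 was above input in 4 of the 5 genes in DMSO (43.9% of all genes) and in 5 of 5 in MAK683 (45.5%). GATA4 was the gene that crossed the input line in CPM, from 0.788 to 1.24 times input. It thereby joined GATA3 and GATA6 in having both modifications above input, which made 3 of 5 in MAK683 and compares with 3.78% of all genes. In DMSO the H3K4me3 level of GATA4 was higher than in 46.9% of all genes, over a span of 83.0 kb. The study lists GATA4 among genes with moderate H3K4me3, in a passage on promoters that carry both modifications. The level over the whole gene is another measure and does not give the level at the promoter. The input line rests on the scaling: with median-of-ratios factors the DMSO median of the 5 genes went from 0.78 to 1.12 on the log2 scale. That factor between the DMSO libraries was 1, so GATA4, with 1063 H3K4me3 and 1067 input counts, lay almost on the line before MAK683. Its crossing therefore holds for CPM.

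**Figure D2:**
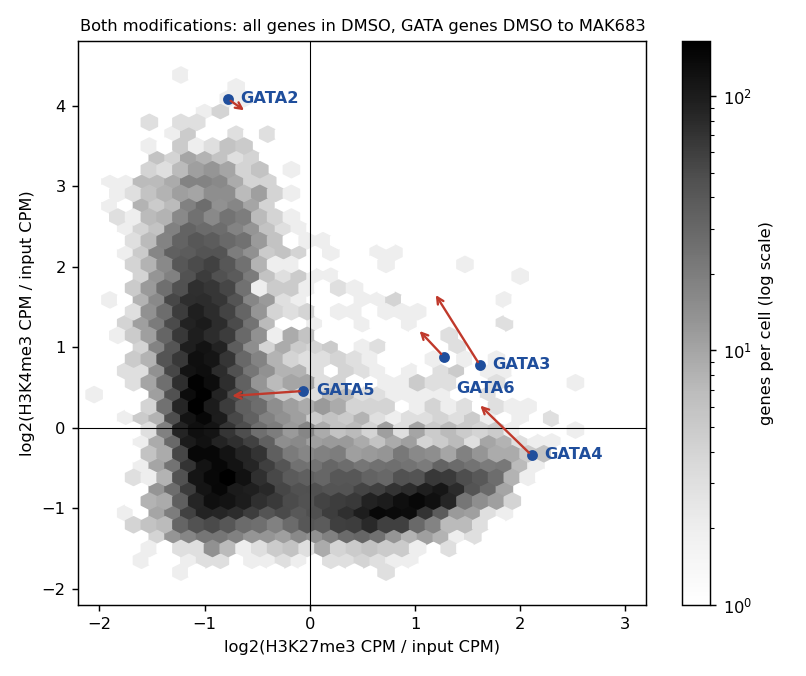
Log2 of H3K27me3 CPM over input CPM (horizontal axis) against log2 of H3K4me3 CPM over input CPM (vertical axis); grey cells count all 17987 genes in DMSO on a log scale, blue points mark the 5 GATA genes in DMSO, and red arrows lead to their MAK683 positions. GATA3, GATA4 and GATA6 move up and to the left from the right side of the plane, GATA5 moves left and GATA2 stays at the top of the left arm.

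With MAK683, H3K27me3 in CPM was lower at GATA3, GATA4, GATA5 and GATA6 and higher at GATA2. The MAK683 share of the H3K27me3 counts was 35.0% for GATA3, 35.7% for GATA4, 35.9% for GATA6 and 37.0% for GATA5, each below the library share of 41.0%, and 43.9% for GATA2. On the log2 scale the change in CPM was -0.36 for GATA3 (interval -0.59 to -0.14), -0.32 for GATA4 (-0.41 to -0.23) and -0.31 for GATA6 (-0.53 to -0.09). These 3 intervals excluded 0, while those of GATA5 (-0.24, from -0.85 to 0.35) and GATA2 (0.17, from -0.48 to 0.82) did not. Lower H3K27me3 was thus found in 4 of the 5 genes, compared with 40.2% of the 19869 genes with enough counts, and the median of the 5 was -0.31 against 0.09 for all. Most genes lay below input for H3K27me3 in DMSO, so shares of all genes, here and below, are not those of genes with a like level. How far the lower H3K27me3 goes with the level in DMSO was not tested. No neighboring pair in the order of the 5 changes differed beyond its counting interval.

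A ratio of MAK683 to DMSO of 0.8 or less was reached by 1 of the 5 genes, GATA3 at 0.777, compared with 7.96% of all genes. GATA4 lay just outside at 0.801, GATA6 at 0.808 and GATA5 at 0.846. This count rests on the scale: it was 4 of 5 with TMM factors (14.5% of all genes), with median-of-ratios factors (14.7%) or relative to the median of all genes (13.4%), and 3 relative to the change of the input (13.0%). In the counts as deposited, which are not divided by the library totals, it was 5 of 5, with 64.9% of all genes also past that ratio, and the median change of the 5 was -0.83. None of the 5 genes was at least 2-fold lower in CPM, which 0.206% of all genes were.

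H3K4me3 in CPM was higher with MAK683 at the same 4 genes and lower at GATA2. GATA3 reached 1.97-fold (log2 0.98, interval 0.77 to 1.19) and GATA4 1.79-fold (log2 0.84, with a lower bound of 0.68), and these 2 genes could not be told apart. GATA5 was at 1.32-fold (log2 0.40, interval 0.02 to 0.79) and GATA6 at 1.23-fold (log2 0.29, interval 0.10 to 0.49). GATA2 was at 0.882 of its DMSO level (log2 -0.18, interval -0.29 to -0.07). Higher H3K4me3 was found in 4 of 5 genes, compared with 47.6% of 22042 genes, and the median was 0.40 against -0.02 for all genes. At least 1.5-fold higher H3K4me3 was found in 2 of the 5, GATA3 and GATA4, compared with 3.6% of all genes, and at least 2-fold in none, compared with 0.73%.

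The input itself was higher in MAK683 at GATA5, by 0.47 on the log2 scale, with an upper bound of 0.96 and a lower bound near 0, and at GATA4, by 0.19 (interval 0.03 to 0.36). Taken relative to input, the H3K4me3 change of GATA5 was -0.06 and no longer positive, and its H3K27me3 change was -0.71. For GATA4 the changes relative to input were 0.65 for H3K4me3 and -0.51 for H3K27me3. Input moved by 0.07 or less in size at GATA2, GATA3 and GATA6. The part of the input in the GATA5 values was not tested.

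Both modifications moved oppositely in 4 of the 5 genes, with lower H3K27me3 and higher H3K4me3, which 25.5% of the 18726 genes with enough counts for both modifications also showed. Past both folds, 0.8 for H3K27me3 and 1.5 for H3K4me3, was 1 of the 5, GATA3, compared with 1.06%. The log2 ratio of H3K4me3 to H3K27me3 in CPM shifted by 1.34 at GATA3 (interval 1.04 to 1.65), 1.16 at GATA4 (0.98 to 1.34) and 0.60 at GATA6 (0.31 to 0.89). At GATA5 (0.65, from -0.03 to 1.33) and GATA2 (-0.35, from -0.97 to 0.27) the interval included 0. GATA3 went from -0.84 to 0.51 and GATA6 from -0.39 to 0.21. H3K4me3 CPM thus exceeded H3K27me3 CPM after MAK683 but not before, although the interval of GATA6 in MAK683 (-0.01 to 0.44) reached 0. Such a crossing was seen at 2 of the 5 genes, compared with 3.64% of all genes. A shift of at least 2-fold was seen at 2 of the 5, GATA3 and GATA4, compared with 1.97%. GATA4 went from -2.45 to -1.29 and remained the one gene with H3K27me3 CPM above H3K4me3 CPM. Each CPM is scaled to the total of its own library, so 0 on this scale does not mean equal amounts. A loss of H3K27me3 common to all genes is not in these shifts either. These counts on the ratio were added after its values were seen.

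**Figure D3:**
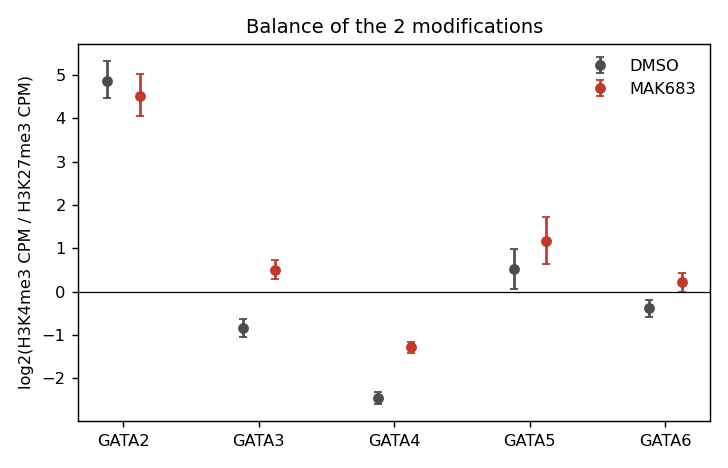
Log2 of H3K4me3 CPM over H3K27me3 CPM for the 5 GATA genes in DMSO (grey) and MAK683 (red), 1 library each, with 95% counting intervals as bars. GATA3 and GATA6 cross the zero line, and GATA4 moves from -2.45 to -1.29 without reaching it.

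The antisense genes at GATA3 and GATA6 were counted as genes of their own, and both start near the promoter of their partner. H3K27me3 at GATA3-AS1 gave 206 counts in DMSO but 48 in MAK683, H3K4me3 gave 156 and 338, and input gave 9 and 16. H3K27me3 was thus 2.95-fold lower (log2 -1.56, interval -2.28 to -0.92), the 6th lowest change of 19869 genes, and H3K4me3 2.34-fold higher (log2 1.23, interval 0.84 to 1.64). GATA3 itself, which shares the promoter window, was at -0.36 and 0.98 over a longer span. In the gene positions used here GATA3-AS1 lies wholly inside GATA3, so these may not be separate measurements. H3K27me3 at GATA6-AS1 gave 207 counts in DMSO but 135 in MAK683, H3K4me3 gave 193 and 333, and input gave 14 and 44. Its H3K4me3 was 1.87-fold higher (log2 0.90, interval 0.53 to 1.28), whereas its H3K27me3 change of -0.09 (interval -0.56 to 0.37) could not be told from 0. The input of GATA6-AS1 was higher by 1.39 on the log2 scale (interval 0.16 to 2.91), and with so few input counts no ratio over input is given for either antisense gene. The annotation used for counting is not given in the sources used here, ChIP reads have no strand of transcription, and how reads in overlapping genes were assigned is not known. GATA2-AS1 was not matched.

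The protein-coding genes beside the GATA genes, 2 on each side, had H3K27me3 above input about as often as all genes. Of the 20 neighbors, 17 had enough input counts, and 4 of these were above input in DMSO, near the 26.7% of all genes: BLK and FAM167A beside GATA4, CELF2 beside GATA3 and NTSR1 beside GATA5. None of the 18 with enough counts reached the H3K27me3 ratio of 0.8 (7.96% of all genes), and none of 17 the 1.5-fold of H3K4me3 (3.6%). The median H3K27me3 change of the neighbors was 0.17, ranging from -0.28 to 0.46, where GATA3, GATA4 and GATA6 were at -0.31 or lower. Most neighbors lay below input for H3K27me3, so this is not a contrast between genes of like level.

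Beside GATA4, both protein-coding genes on one side had lower H3K27me3 and higher H3K4me3 in MAK683. BLK, a kinase gene of B cells whose end lies 112 kb before the GATA4 start, had H3K27me3 counts of 2904 in DMSO but 1668 in MAK683, and H3K4me3 counts of 725 and 910. Its log2 changes were -0.27 (interval -0.40 to -0.15) for H3K27me3 and 0.44 (interval 0.24 to 0.65) for H3K4me3. FAM167A, farther on the same side, had H3K27me3 counts of 923 and 528 and H3K4me3 counts of 1083 and 1371, which are log2 changes of -0.28 and 0.46. The input was higher in MAK683 by 0.15 at BLK and by 0.27 at FAM167A, and its part in these values was not tested. NEIL2, a DNA repair glycosylase gene 9.64 kb beyond the GATA4 end, had H3K27me3 below input in DMSO (log2 -0.78) and changes of 0.24 (interval -0.26 to 0.74) and -0.09. No test of a difference between the regions was made.

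**Figure D4:**
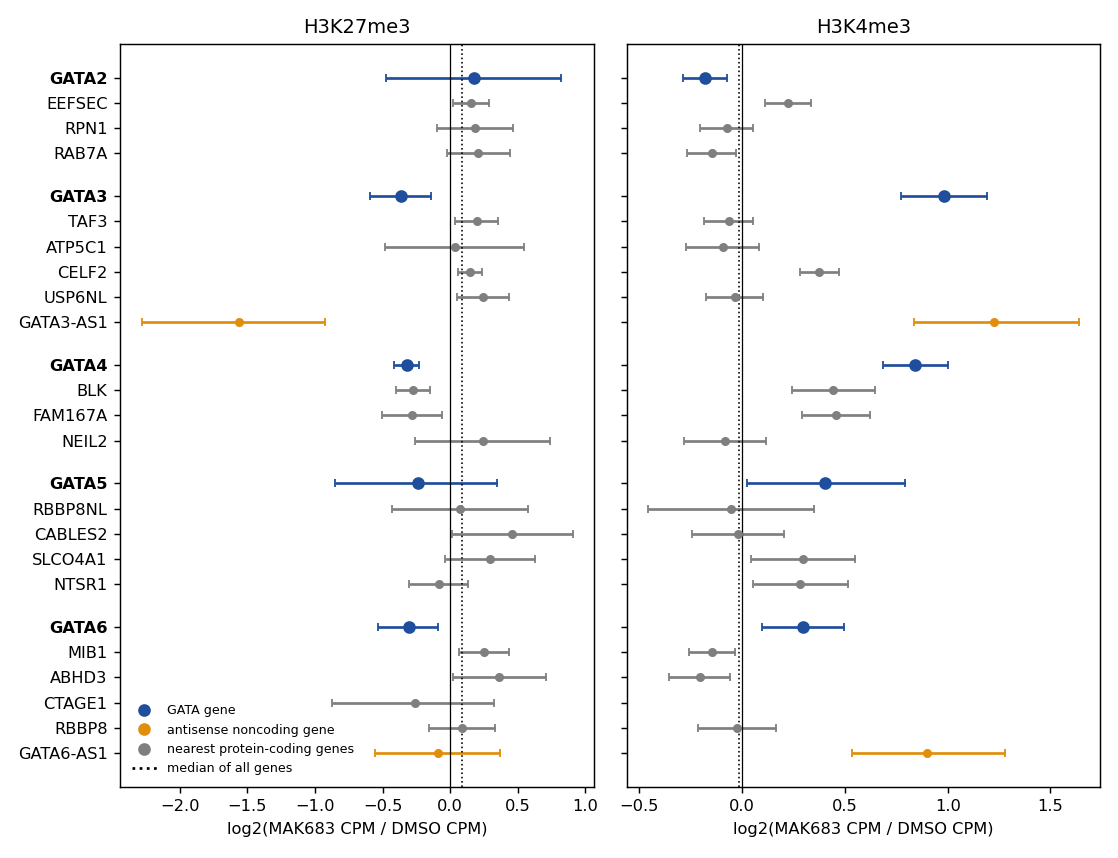
Log2 of MAK683 CPM over DMSO CPM for H3K27me3 (left) and H3K4me3 (right) at each GATA gene (blue), its nearest protein-coding genes (grey) and its antisense gene (orange), for values with at least 100 counts in the 2 libraries, with 95% counting intervals and the median of all genes as a dotted line. GATA3-AS1 has the lowest H3K27me3 change at -1.56, and BLK and FAM167A lie near GATA4 for H3K27me3, at -0.27 and -0.28.

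Genes with a GATA-type zinc finger outside the family stood below input for H3K27me3 where they could be measured. The 9 genes, TRPS1, GATAD1, GATAD2A, GATAD2B, ZGLP1, MTA1, MTA2, MTA3 and RERE, include subunits of the NuRD remodeler, and 0 of the 8 with enough input had H3K27me3 above input in DMSO, compared with 26.7% of all genes. With MAK683, 0 of 7 reached the H3K27me3 ratio of 0.8 (7.96% of all genes) and 0 of 8 the 1.5-fold of H3K4me3 (3.6%). Their median changes were 0.29 and -0.11.

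Genes for cofactors of GATA proteins were more varied. Of the 11 cofactor genes, 3 of 9 with enough counts reached the H3K27me3 ratio of 0.8 (7.96% of all genes) and 2 of 10 the 1.5-fold of H3K4me3 (3.6%). LMO4, a LIM-only adaptor, had H3K27me3 counts of 1238 in DMSO but 493 in MAK683 (log2 change -0.80, interval -1.02 to -0.59). Its H3K4me3 counts were 871 and 1896 (log2 change 1.24, interval 1.07 to 1.41). LMO2, the LIM-only adaptor that links GATA factors to TAL1 in blood cells, had H3K27me3 counts of 1789 and 856 (log2 change -0.54, interval -0.71 to -0.37) and H3K4me3 counts of 811 and 1176 (log2 change 0.65, interval 0.47 to 0.84). TAL1, a basic helix-loop-helix factor of blood stem cells, had H3K27me3 counts of 448 and 232 (log2 change -0.42, interval -0.76 to -0.09) and H3K4me3 counts of 415 and 429 (log2 change 0.16). The median changes of the list were -0.15 for H3K27me3 and 0.10 for H3K4me3, against 0.09 and -0.02 for all genes.

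Partner factors of heart and endoderm gave 5 of 13 at the H3K27me3 ratio of 0.8 (7.96% of all genes) and 4 of 11 at the 1.5-fold of H3K4me3 (3.6%). The 5 were EOMES at -0.96, FOXA1 at -0.57, NKX2-5 at -0.48 and HAND1 and HAND2 each at -0.34 on the log2 scale. The intervals of EOMES (-1.70 to -0.28) and FOXA1 (-0.97 to -0.19) excluded 0, while those of NKX2-5, HAND1 and HAND2 included it. The 4 with higher H3K4me3 were ISL1 at 1.16, FOXA2 at 1.08, TBX20 at 0.86 and TBX5 at 0.66. ISL1, a factor of the second heart field, had H3K4me3 counts of 139 in DMSO but 287 in MAK683, with H3K27me3 counts of 624 and 371. FOXA2, a pioneer factor of endoderm, went from 62 to 122 counts in H3K4me3 while its H3K27me3 change was 0.18 (interval -0.13 to 0.48). The medians of the list were -0.22 and 0.41.

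Among 18 genes known downstream of a GATA factor, 2 of 13 reached the H3K27me3 ratio of 0.8 (7.96% of all genes) and 1 of 11 the 1.5-fold of H3K4me3 (3.6%). NPPB, the gene of the natriuretic peptide BNP in heart muscle, had H3K27me3 counts of 174 in DMSO but 73 in MAK683 (log2 -0.72, interval -1.33 to -0.15). IL1A, a cytokine gene of the senescence program, had 92 and 48 (log2 -0.41, interval -1.19 to 0.33), and its H3K27me3 was below input in DMSO. TNNT2, the cardiac troponin T gene, had H3K4me3 counts of 187 and 286 (log2 0.73, interval 0.34 to 1.12), but its input was also higher, by 0.43 (interval 0.07 to 0.81), and its H3K4me3 was below input in DMSO (log2 -0.47) and in MAK683 (log2 -0.17). ACTC1 and IL13 were at 0 in all 6 libraries, input included, and were not measured. The list medians were -0.16 and 0.30. All lists together with the GATA genes are in the plot of one change against the other.

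**Figure D5:**
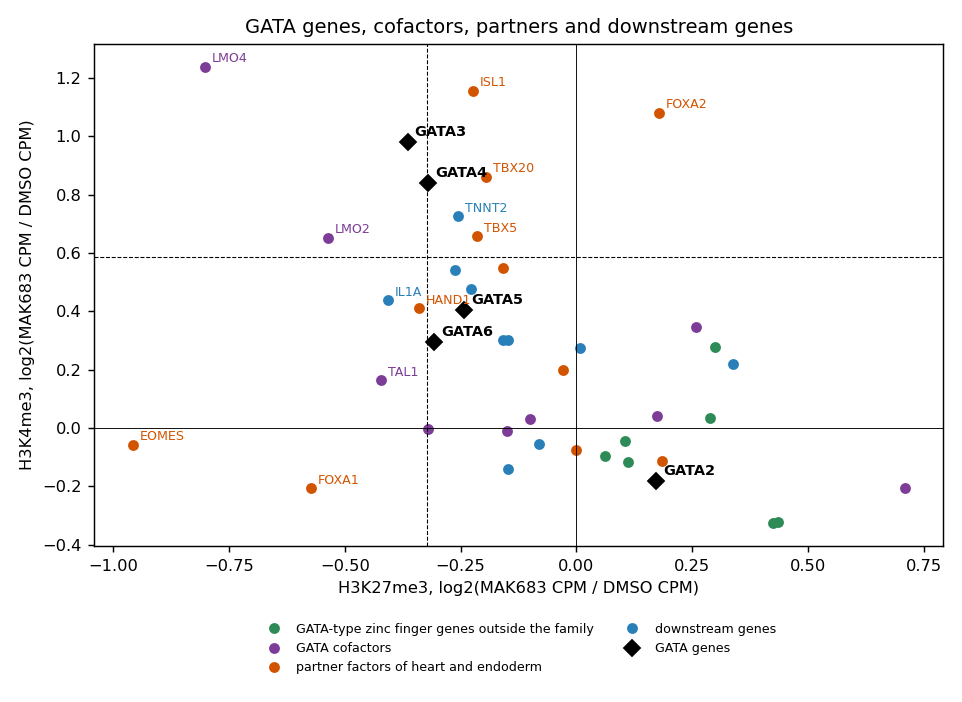
Log2 change of H3K27me3 CPM (horizontal axis) against that of H3K4me3 CPM (vertical axis), MAK683 over DMSO, for the GATA genes (black diamonds) and 4 gene lists (colored points) with at least 100 counts for each modification. Dashed lines mark the folds used for the counts, genes past a line are named, and LMO4 and LMO2 lie beyond both lines in the upper left together with GATA3.

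Each GATA gene was last set beside the genes with the most similar pattern, by Euclidean distance over 4 values, the log2 levels over input of both modifications in both treatments, among 13288 protein-coding genes. GATA6 lay nearest to MFAP3L (0.13), TRIM36 (0.13) and FAM89A (0.27), and GATA3 to NFIL3 (0.32), PERP (0.43) and FAM89A (0.43). GATA3 and GATA6 were near each other, 0.60 apart, where GATA6 was the 15th nearest gene to GATA3 and GATA3 the 26th nearest to GATA6. GATA4 lay nearest to GDNF (0.25), IRF4 (0.26) and BCL11A (0.26). GATA5 lay nearest to ALOX12B (0.28), RAB11B (0.28) and ANKRD33B (0.30), and GATA2 to TRIB1 (0.20), KLF6 (0.35) and ADAMTS1 (0.51). GATA2 was the gene farthest from the rest of the family, between 4.93 and 6.77 from each of the others.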

How the data were processed

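ChIP-seq libraries of H3K27me3, H3K4me3 and input from G401 cells under DMSO or 3 µM MAK683 were analysed, 1 per treatment and antibody. The authors trimmed reads with Trim Galore 0.4.4, used Bowtie2 for alignment to hg19, and ran featureCounts per gene. They used Picard 2.23.6 against what they call repeat sequences, and describe the removal of duplicates before spike-in reads were counted. The counts they deposited are whole numbers for 56638 genes. A Drosophila spike-in is described in the methods. They place it before counting, but its factors are not given and whether the counts carry it cannot be told from the values. A change shared by all genes cannot be read from CPM. The gene annotation used for counting is not given in the sources used here.

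Counts were divided by library totals to CPM, and log2 ratios used a pseudocount of 0.05 CPM. Changes were taken over genes with at least 100 counts in the 2 libraries, and levels over input over genes with at least 200 input counts in the 2 treatments. Intervals are 95% exact Clopper-Pearson intervals of the split of counts between libraries, with 2 counts taken as 1 fragment because of the excess of even counts (a choice made after seeing the data), and those of a difference of ratios use the normal approximation to the counting error; they cover counting error only. With 1 library per group no test between treatments was possible. Arithmetic was tested on simulated counts. Gene positions are from GENCODE release 44 on GRCh37, the build of hg19, matched by symbol for 35720 genes (63.1%), and promoter windows from RefSeq. Neighbors were the 2 nearest protein-coding genes on each side and noncoding genes that overlap a member or start within 5 kb. The text names the 5 GATA genes, their antisense genes, list genes past either fold, and the 3 nearest patterns of each gene. Of the protein-coding neighbors it names those with H3K27me3 above input in DMSO and NEIL2, and the rest are not named. The members and lists were chosen with earlier results of these data known. A partner factor of the list is not reported here. Alternatives were other scalings (edgeR 4.0.16 for TMM), pseudocounts, filters and folds. Tools were Python 3.11.15, numpy 2.4.6, pandas 2.3.3, scipy 1.17.1, matplotlib 3.10.9 and R 4.3.3.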

Additional observations from a re-analysis of the deposited data

How the results depend on the processing

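No paired analysis was possible because each treatment and antibody had 1 library. The median H3K27me3 change of the GATA genes was -0.31 in CPM and -0.83 in the counts as deposited, which are not divided by library totals. The number of genes at the H3K27me3 ratio of 0.8 or less, 1 of 5, became 5 in the counts as deposited (64.9% of all genes), 4 with TMM factors (14.5%), 4 with median-of-ratios factors (14.7%), 3 relative to the input (13.0%), 4 relative to the median of all genes (13.4%) and 0 at 2-fold (0.206%). The 2 genes with higher H3K4me3 became 0 at 2-fold. The median level over input in DMSO went from 1.27 to 2.04 for H3K27me3 and from 0.78 to 1.03 for H3K4me3 relative to the median of all genes, and to 1.85 and 1.12 with median-of-ratios factors. GATA2 H3K27me3 turned to -0.35 in the counts as deposited and GATA5 H3K4me3 to -0.064 relative to the input. Single-gene changes moved beyond their counting interval in the same direction in 6 more cases for H3K27me3 and 2 for H3K4me3, and stayed within it in 28 and 32. Without replicates the spread between cultures is unknown, and GATA2 and GATA5 H3K27me3 rest on 173 and 211 counts.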
